A study of Mus musculus with 12 samples.

Results

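This comparison set 4 forestomach samples from mice that drank 15% alcohol for 40 weeks against 4 from mice that drank 20% alcohol for 4 weeks, 8 of the 12 samples measured, each placed by its sample title. All were adult wild-type C57BL/6J mice, an inbred strain, with no transgene or deletion named. The 4-week group took its alcohol in supersaccharin, a sweet solution. The labels name no sweetener for the 40-week group, whose mice carry another cohort name. A further 4 samples from mice given supersaccharin without alcohol are shown as a reference level only. The labels do not say whether a sample is 1 mouse or a pool, or whether replicates were separate animals, and they give no sex, exact age or hour of collection. The p-values therefore rest on the spread among these samples alone, and that spread may be in part technical. The 40-week samples were not all from 1 mouse or pool, as the Y-linked genes below show.

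Like the oesophagus, the forestomach of rodents has a keratinized stratified squamous epithelium. It stores food and meets swallowed alcohol before absorption. Alcohol dehydrogenases turn ethanol into acetaldehyde and aldehyde dehydrogenases clear the acetaldehyde. The tissue also holds smooth muscle, fat, vessels and resident immune cells, all of which enter a whole-tissue RNA sample.

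Each value is a log2 ratio of forestomach RNA (Cy5) to a commercial pool of mouse RNA (Cy3) on a two-colour array, so 0 means a level equal to the pool and 1 unit is a 2-fold step. Differences are given as 40 weeks minus 4 weeks on the log2 scale, ± the standard error of the limma fit. The keratins of squamous epithelium were high against the pool in every alcohol sample, from 2.21 to 4.03 for Krt5, from 4.35 to 5.02 for Krt4 and from 3.13 to 5.03 for Krt13.

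The deposited 40-week columns had a smaller spread over probes, with a standard deviation of 1.02 to 1.08, than the 4-week columns, at 1.48 to 1.58 (difference -0.465, exact two-sided permutation p = 0.0286, the smallest that 4 against 4 allows). Columns were therefore quantile normalized, and a stricter count was kept of genes called in the same direction also in the deposited values and after scaling each column to 1 spread. In the deposited values the median difference fell with the level of a gene in controls, from 0.50 among the 4150 genes of lowest level to -0.75 among the 4150 of highest level. After quantile normalization it was -0.11 and -0.08. Across genes, which do not count as replicates of each other, Pearson correlations ran 0.941 to 0.974 within the 40-week group, 0.886 to 0.956 within the 4-week group and 0.759 to 0.892 between them. Control and 4-week arrays lay on separate slides with none shared, and the slides of the 40-week arrays were not analysed here, so slide, cohort, drinking solution, dose, duration and age cannot be told apart.

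Samples within a group also differed. The Y-linked genes Eif2s3y and Ddx3y stood at 3.79, 4.03, -7.21 and -7.48 and at 1.12, 1.63, -5.40 and -5.25 in 40-week replicates 1 to 4, and Xist, the RNA that silences 1 X chromosome in female cells, at -1.84, -1.60, 0.84 and 0.15. Replicates 3 and 4 thus stood far below the other alcohol samples on both Y-linked genes and highest on Xist, whose other probe differed between the groups by 3.75, as the other Ddx3y probe did by -2.96. Every 4-week sample had Y-linked signal, at 2.26 to 2.72 for Eif2s3y, so of the alcohol groups only the 40-week group mixed samples with and without it. Over the 5 sex-chromosome genes tested none was called, although Eif2s3y and Ddx3y were without 40-week replicate 1 or 2, and Xist was in the deposited values. Calls lost without these 2 samples, or without the 4-week pair described next, are given beside the genes concerned. The mean level of 22 glandular stomach genes was 3.18 in 4-week replicate 2 and 0.803 to 1.22 in the other 4-week samples. The mean of 21 adipocyte genes was 1.65 in 4-week replicate 3 against 3.21 to 3.30 in the rest of its group. The same means ran from 1.39 to 1.96 and from 2.88 to 4.08 at 40 weeks.

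Of 20748 genes tested, 8441 were called at a limma adjusted p under 0.05 (40.7%), 3775 higher (18.2%) and 4666 lower (22.5%) at 40 weeks. The alcohol groups did not overlap for 40.8% of genes. Only 2501 genes were higher in all 3 scalings (12.1%) and 2404 lower (11.6%), and these shares are the background for each group of genes below. Without 40-week replicates 3 and 4 the count was 5495, and without 4-week replicates 2 and 3 it was 5001. The control mean lay nearer the 4-week than the 40-week mean for 83.0% of called genes and 69.8% of all genes tested. Where a called gene had another measured probe, that probe had the same sign in 67.2% of 3900 cases, against 60.6% over all genes. For genes called in all 3 scalings it was 65.5% of 2065 cases, so the stricter count brought no gain in agreement between probes. Single genes are therefore given with their other probes where there are any.

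**Figure D1:**
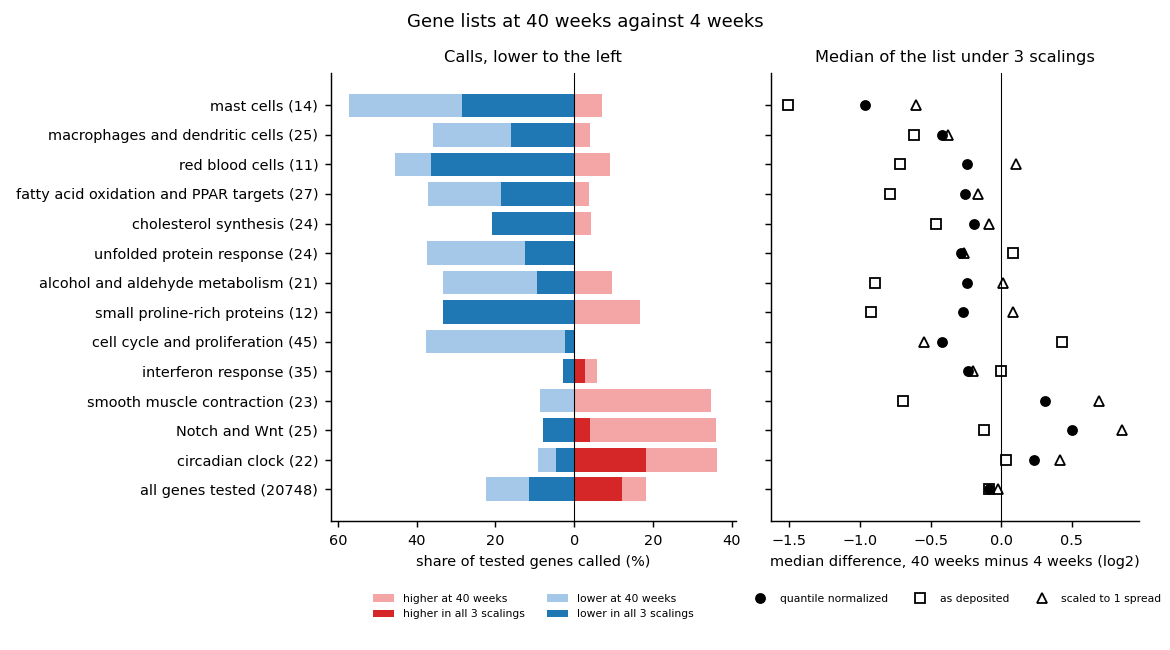
Left, the share of tested genes in each list (number in brackets) called lower (to the left) or higher (to the right) at 40 weeks, with the share called in all 3 scalings darker. Right, the median difference of the list, 40 weeks minus 4 weeks in log2, in quantile normalized values (filled circles), deposited values (squares) and values scaled to 1 spread (triangles). Mast cell genes lie left of 0 in all 3, while cell cycle and smooth muscle genes change side.

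Neat1, the scaffold RNA of nuclear paraspeckles, was among the largest rises. It stood at -2.07, -2.80, -2.77 and -2.71 in the 4-week samples and at 1.20, 1.07, 1.10 and 1.11 in the 40-week samples. Every 40-week value was above every 4-week and control value, and the difference was 3.70 ± 0.34 (limma adjusted p = 2.68e-05). The files place its probe at chr19:5842564-5842623 of mouse build mm9. Neat1 is one of the 15 genes with the largest rise under the rule for named genes. The RNAs named next lay outside those 15 and were singled out after their values were seen, and Xist, also a nuclear long RNA, was not called. Malat1, a nuclear speckle RNA, stood at -0.41, -1.70, -1.56 and -0.82 against 1.99, 1.32, 1.71 and 2.05, a difference of 2.89 ± 0.45, and its other 3 probes gave 2.53, 2.63 and 2.82. In the reference channel, a pool of RNA, the first Malat1 probe differed by 0.79 (log2 Cy3, 4-week minus control), and the part of this was not tested. Meg3, an imprinted noncoding RNA, differed by 2.93 ± 0.51 with 2.90, 3.05 and 3.20 at its other 3 probes. Both Malat1 and Meg3 were raised at every probe measured. Kcnq1ot1, the imprinted antisense RNA of the Kcnq1 locus, differed by 2.93 ± 0.53, with 0.53, 1.17 and 2.02 at its other probes, so its probes did not have 1 size of change. Snhg20, a small nucleolar RNA host gene, differed by 3.03 ± 0.16. Ogt encodes the enzyme that adds N-acetylglucosamine to nuclear and cytosolic proteins. It rose by 2.95 ± 0.21, with 2.42 and 2.47 at its other 2 probes. In controls Malat1 ran from -1.14 to 1.08 and Kcnq1ot1 from -3.30 to -0.40, wide ranges that reached above the 4-week samples. Neat1, Malat1, Meg3 and Kcnq1ot1 were each higher in control replicates 1 and 2 than in 3 and 4, and each was highest in replicate 1 among the 4-week samples. These genes thus varied together over samples and are not separate observations, and the cause was not tested.

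**Figure D2:**
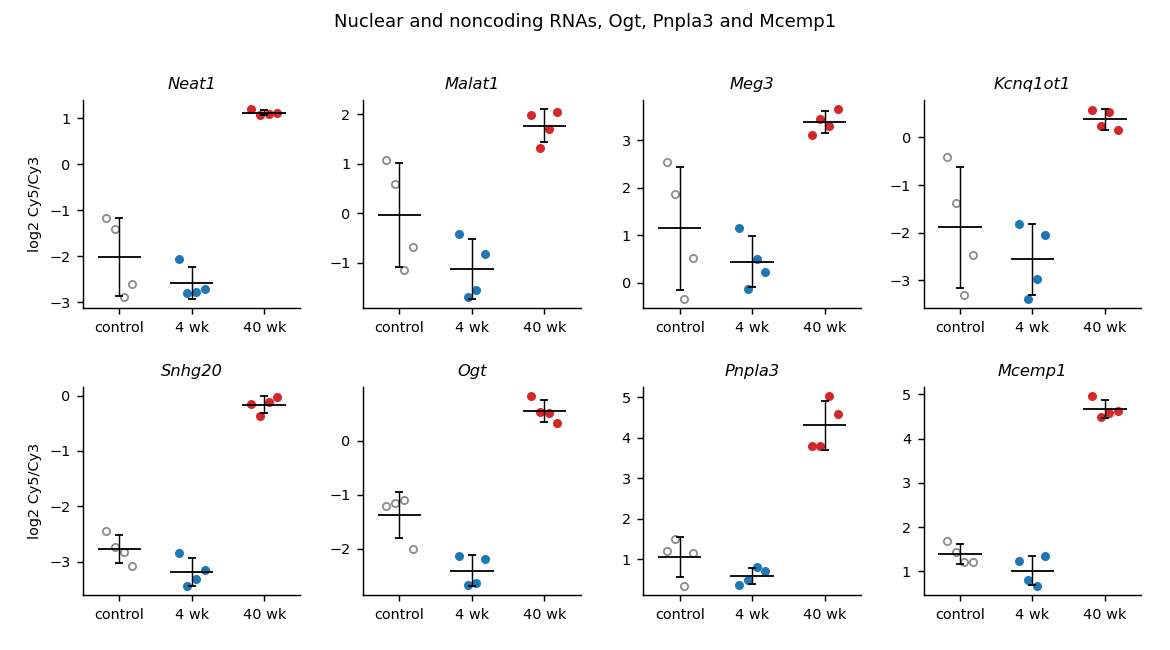
Log2 Cy5/Cy3 (vertical axes) of 8 genes in the 4 samples of each group (points), with the group mean (line) and standard deviation (bar). The 40-week samples lie above all 4-week samples in each panel.

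Transcripts without a place in the gene catalogue made up part of the rises. Of 432 genes whose name in the files was not in the reference table, many of them RIKEN cDNA clones, 165 were higher in all 3 scalings (38.2%) and 44 lower (10.2%). Of 3477 probes with no gene name, 26.4% were higher and 12.3% lower. For 437 long noncoding RNA genes the shares were 16.5% and 13.5%, for 16126 protein-coding genes 8.20% and 11.2%, and for 248 pseudogenes 7.26% and 24.2%. These shares are descriptions, since genes of a kind share probe design and level. The RIKEN names among the 15 largest rises were 9530039L23Rik, 8030498J20Rik, D230034L24Rik, E130120C16Rik, 9530010C24Rik and 6820402I19Rik, with differences between 3.39 and 4.30. On the 4-week arrays D230034L24Rik, E130120C16Rik and 9530010C24Rik were well above background on only 2 of 4, and 8030498J20Rik and 6820402I19Rik on 3 of 4, so these differences rest partly on signals near background. Without 4-week replicates 2 and 3 6820402I19Rik was not called (limma adjusted p = 0.107). Control values could spread widely: 6820402I19Rik ran from -2.71 to 2.00 in controls, a range that holds all 4 of its 40-week values, at 1.55, 1.86, 1.40 and 1.44. Each of the RIKEN genes named here was higher in control replicates 1 and 2 than in control replicates 3 and 4, so they too varied together over samples.

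The protein-coding genes with the largest rises had varied roles. Pnpla3, a lipid droplet acyltransferase and lipase linked to fatty liver, stood at 0.35, 0.47, 0.79 and 0.70 at 4 weeks and at 3.80, 3.80, 5.02 and 4.59 at 40 weeks, a difference of 3.73 ± 0.30 (limma adjusted p = 1.32e-05). Muc16, a large membrane mucin, differed by 3.42 ± 0.52, but controls at 2.92, 0.90, 3.07 and 2.72 lay mostly above the 4-week samples at 0.58, 0.43, 1.42 and 0.55. Its 40-week values were 2.79, 4.60, 4.73 and 4.53. Grifin, a galectin-related protein, differed by 3.88 ± 0.43. Srrm3, a splicing factor of neural microexons, differed by 3.44 ± 0.24, with 1.13 at its other probe. In the reference channel, which should carry the same RNA on every array, the Srrm3 probe differed by 2.41 (log2 Cy3, 4-week minus control), and the part of this in the result was not tested. Mcemp1, a mast cell membrane protein, differed by 3.66 ± 0.18, but its other probe gave -0.53. Acrbp, a protein of the sperm acrosome, differed by 3.54 ± 0.29 with 0.20 at its other probe. Ptprg, a receptor tyrosine phosphatase, stood at 1.37, -4.69, -4.70 and 2.09 at 4 weeks and at 3.04, 2.73, 2.75 and 2.33 at 40 weeks. On 2 of the 4-week arrays its Cy5 signal was not clearly over background, and the 4-week values were split. The difference was 4.2 ± 1.33, with -0.06 at its other probe. It was not called in the deposited values (limma adjusted p = 0.0555) or without 40-week replicates 3 and 4 (0.0951). Without 4-week replicate 3 its limma adjusted p was 0.0700, without 4-week replicate 2 0.0669, without 40-week replicate 1 0.0535 and without 40-week replicate 3 0.0503. Of the other coding genes here, Pnpla3, Grifin and Srrm3 each had 1 4-week array with no Cy5 signal clearly over background. Olfr665, an odorant receptor gene, was not well above background on any 4-week array, so only a bound could be given there and no fold is stated.

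The 15 largest falls included a sulphotransferase, a cytochrome P450 and 2 mast cell proteases. Sult1d1, which adds sulphate to phenols and amines, stood at 5.23, 7.93, 5.84 and 4.07 at 4 weeks and at 3.68, 1.40, 1.10 and 1.19 at 40 weeks, a difference of -3.92 ± 0.86 (limma adjusted p = 0.00381). Its limma adjusted p was 0.0519 without 40-week replicates 3 and 4. Its highest values over all 12 samples, 7.93 and 6.88, were those of 4-week replicate 2 and control replicate 4, the 2 samples with the highest mean level of glandular stomach genes (3.18 and 3.71), and the part of this in the difference was not tested. Crabp2 and Cyp2b10, also among the 15, are described with their pathways. Apod, a lipocalin that carries lipids, differed by -2.55 ± 0.57. Rgs7bp, which anchors a regulator of G protein signalling, differed by -2.89 ± 0.53, while its other probe gave 1.53, the opposite sign. Osbpl8, an oxysterol-binding protein, differed by -2.43 ± 0.31 with -0.79 at its other probe. Klra20 and Klra15, Ly49-type receptors of natural killer cells, differed by -3.57 ± 0.48 and by -2.56 ± 0.61. Each had 1 4-week array with no signal clearly over background, and of the 4 control arrays Klra20 had such a signal on none and Klra15 on 1. Both thus passed the signal filter only through the 4-week group, where their means were highest. Their place among the falls was therefore partly set by that filter. Klra15 differed by -1.21 in the deposited values and was not called there (limma adjusted p = 0.112) or without 4-week replicates 2 and 3 (0.0736). Such paralogs can share signal. Rbm45, an RNA-binding protein, differed by -2.78 ± 0.53, Tex26 by -2.45 ± 0.26 and Maats1 by -2.40 ± 0.25. Rab38, a small GTPase of pigment granules, had the largest difference, -4.68 ± 1.72, but its 40-week values of -1.47, 4.92, -5.01 and 4.69 were split. Its limma adjusted p was 0.121 without 40-week replicate 1, 0.0956 without replicate 3 and 0.0757 to 0.0833 without any one of 4-week replicates 1 to 4, 0.0520 without 40-week replicates 3 and 4, 0.157 without 4-week replicates 2 and 3 and 0.0877 after scaling to 1 spread, against 0.0464 with all samples.

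Several genes of the circadian clock rose and 2 of its repressors fell. In the molecular clock, CLOCK and BMAL1 switch on genes through E-boxes, among them the Per genes, Nr1d1 and the transcription factors Dbp, Tef and Hlf. PER proteins shut that drive off, and REV-ERB alpha, the product of Nr1d1, represses Arntl, the gene of BMAL1. Dbp, Tef and Hlf activate genes through the D-box, and Nfil3 represses through the same site. Of the 8 clock genes named here, 7 had a promoter in RefSeq's table (build GRCm38.p6). Those of Per3 and Tef are shown because they alone among the 7 held a match to 1 of these motifs; the windows of Dbp, Hlf, Nr1d1, Nfil3 and Csnk1e held none, which says only that these letters are not there. Each is the 250 bases before a start site, with E-boxes (CACGTG, the same on both strands) and D-boxes (TTATGTAA or TTATGCAA on either strand, which do not overlap the E-box) in capitals.
Per3 (chr4:151044666-151044915, minus strand): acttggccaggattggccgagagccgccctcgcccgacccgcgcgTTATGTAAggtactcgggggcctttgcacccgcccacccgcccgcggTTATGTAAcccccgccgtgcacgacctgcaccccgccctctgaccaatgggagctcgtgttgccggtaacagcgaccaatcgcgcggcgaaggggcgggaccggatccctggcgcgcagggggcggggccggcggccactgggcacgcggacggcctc
Tef (chr15:81802423-81802672, plus strand): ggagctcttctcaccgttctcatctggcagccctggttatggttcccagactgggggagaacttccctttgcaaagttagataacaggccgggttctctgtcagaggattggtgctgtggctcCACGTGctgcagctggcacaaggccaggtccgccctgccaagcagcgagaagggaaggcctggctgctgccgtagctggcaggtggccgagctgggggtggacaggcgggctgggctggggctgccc
Tef (chr15:81811164-81811413, plus strand): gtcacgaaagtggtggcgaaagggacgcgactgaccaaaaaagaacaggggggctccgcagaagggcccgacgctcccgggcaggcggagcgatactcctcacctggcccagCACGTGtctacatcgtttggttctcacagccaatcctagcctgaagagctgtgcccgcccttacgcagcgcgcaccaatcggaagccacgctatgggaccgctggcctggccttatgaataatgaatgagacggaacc
Per3 held a D-box at positions -205 and -158, counted from the start site, and each of the 2 Tef windows held 1 E-box. A D-box was found in 1.50% and an E-box in 6.04% of all 32536 such windows, and 0.0338% held 2 or more D-boxes. A match is only a description of these letters.

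Of 22 clock genes tested, 8 were higher (36.4%, against 18.2% of all genes) and 2 lower (9.09%, against 22.5%). In all 3 scalings 4 were higher and 1 lower. Without 40-week replicates 3 and 4 the counts were 7 and 2, and without 4-week replicates 2 and 3 they were 6 and 1. The median difference of the list was 0.23, against -0.09 over all genes. Per2, a core repressor of the loop, stood at 0.47, -0.05, 0.38 and 0.43 in the 4-week samples and at 2.89, 2.53, 2.76 and 2.42 in the 40-week samples. Controls lay at -0.03, 0.11, -0.19 and -0.03, so the 40-week samples were set far above both other groups. The difference was 2.34 ± 0.15 (limma adjusted p = 3.12e-06), and a second Per2 probe gave 0.40. The first probe lies at chr1:93313046-93313105 of mm9. Per3, whose promoter is shown above, stood at -0.50, -0.75, 0.12 and -0.22 against 0.62, 0.74, 0.53 and 0.17, a difference of 0.85 ± 0.21, but controls at 1.10, 0.55, 0.47 and 0.50 overlapped the 40-week samples. Tef stood at 1.07, 0.33, 0.87 and 0.85 against 2.20, 2.20, 2.30 and 1.96, a difference of 1.38 ± 0.16, with -0.07, 0.19 and 1.73 at its other 3 probes, so only 1 of those moved like the first. Hlf and Dbp, the 2 partners of Tef, differed by 1.33 ± 0.21 and 0.68 ± 0.18; in the deposited values the differences were 0.04 and 0.16 and neither was called. Without 40-week replicates 3 and 4 Dbp had a limma adjusted p of 0.0751. Csnk1e, a kinase that marks PER proteins for decay, differed by 0.66 ± 0.16, with -0.23 at its other probe.

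The 2 clock genes that fell both encode repressors. Nr1d1 stood at 2.31, 1.71, 2.57 and 2.41 at 4 weeks and at 0.89, 1.38, 1.06 and 1.57 at 40 weeks, a difference of -1.02 ± 0.21 (limma adjusted p = 0.00252), and its other probes gave -0.88 and -0.37. All 4 of its 40-week values lay below all 4 4-week values, and controls at 1.60, 1.86, 1.47 and 1.99 overlapped both. Nfil3 differed by -0.71 ± 0.18 and by -0.56 at its other probe, but by -0.03 in the deposited values, where it was not called, and without 4-week replicates 2 and 3 its limma adjusted p was 0.0628. Arntl (-0.73), Per1 (0.26), Clock (0.26), Cry1 (0.11) and Cry2 (0.16) did not pass the test.

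**Figure D3:**
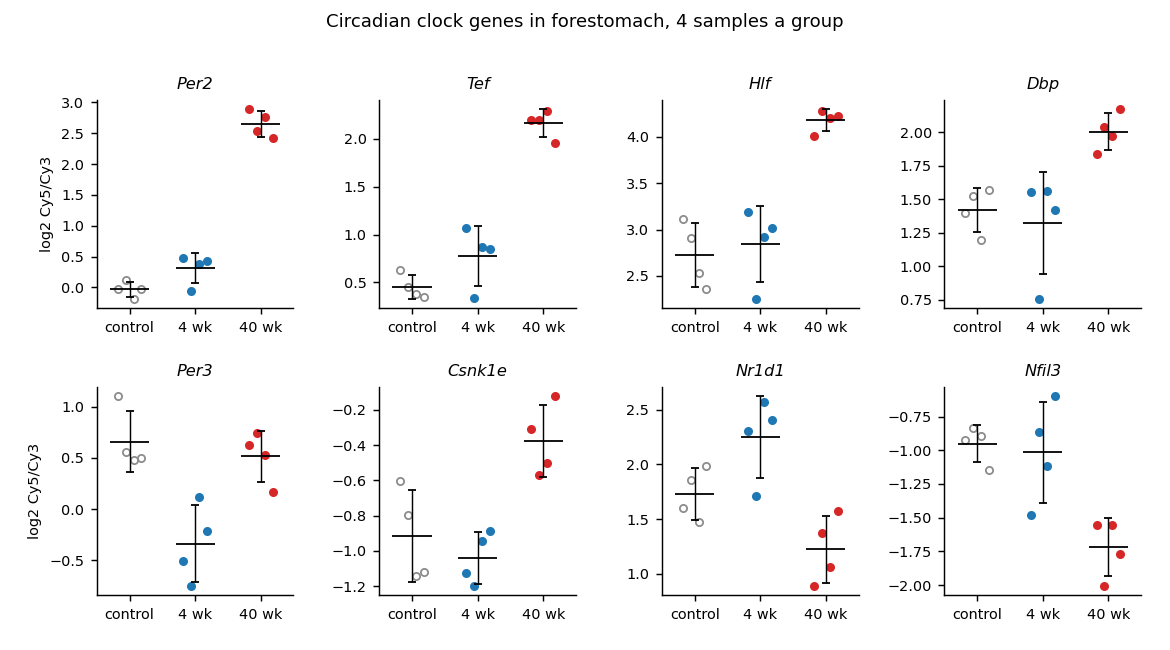
Log2 Cy5/Cy3 (vertical axes) of 8 clock genes in the 4 samples of each group (points), with mean (line) and standard deviation (bar). Per2, Tef, Hlf, Dbp, Per3 and Csnk1e lie higher and Nr1d1 and Nfil3 lower at 40 weeks than at 4 weeks, with no overlap of those groups.

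Most mast cell genes tested were lower at 40 weeks. Mast cells are resident immune cells whose granules hold tryptases, chymases and carboxypeptidase. Of 14 marker genes tested, 8 were lower (57.1%, against 22.5% of all genes) and 1 higher, and 4 were lower in all 3 scalings. The list's median difference was -0.97, and it was -1.51 in the deposited values and -0.60 after scaling to 1 spread. The mean level of the list was 1.38 to 2.09 in the 4-week samples, 0.498 to 1.20 in the 40-week samples and 1.20 to 2.03 in controls. Counts fell to 5 lower genes without 40-week replicate 1 and to 5 without 4-week replicates 2 and 3, and stood at 6 without 40-week replicates 3 and 4. In a whole-tissue sample fewer cells of a type and less RNA per cell cannot be told apart.

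Tpsb2, a mast cell tryptase, stood at 2.97, 3.26, 4.12 and 3.72 at 4 weeks and at 0.42, 0.58, 1.38 and 1.09 at 40 weeks. Controls at 2.32, 2.78, 3.06 and 3.40 lay with the 4-week samples, and the difference was -2.65 ± 0.30 (limma adjusted p = 8.89e-05). Cpa3, the granule carboxypeptidase, stood at 5.09, 5.40, 5.39 and 5.56 against 2.36, 2.35, 3.71 and 3.27, a difference of -2.44 ± 0.29, with its probe at chr3:20115674-20115733 of mm9. The 2 lowest values were those of 40-week replicates 1 and 2, and without replicates 3 and 4 the difference was -3.18. Fcer1a, a chain of the high-affinity IgE receptor, differed by -1.52 ± 0.36, and Cma1, a chymase, by -0.97 ± 0.22 (limma adjusted p = 0.00458) and by -1.59 at its other probe, but after scaling to 1 spread Cma1 differed by -0.37 and was not called (limma adjusted p = 0.302). Kit (-0.18), the stem cell factor receptor, and Gata2 (0.10) did not pass the test, and Il1rl1, the receptor for interleukin 33, was higher by 0.73 in the quantile normalized values. Mcemp1, the mast cell membrane protein described above, was higher by 3.66, with -0.53 at its other probe.

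Some genes of macrophages and dendritic cells were also lower. Of 25 tested, 9 were lower (36.0%, against 22.5% of all genes) and 1 higher (4%, against 18.2%). In all 3 scalings 4 were lower, against 11.6% of all genes. Without 40-week replicates 3 and 4, 14 were lower, but 7 without 4-week replicates 2 and 3. The list's mean was 0.442 and 0.505 in 40-week replicates 1 and 2. In replicates 3 and 4 it was 1.11 and 1.02, within the 0.979 to 1.44 of the 4-week samples. Cd209a, a lectin of dendritic cells and some macrophages, stood at 1.93, 2.49, 2.93 and 2.48 against -0.00, 0.13, 1.11 and 0.74, a difference of -1.96 ± 0.34 (limma adjusted p = 0.000873). Adgre1, which encodes a surface antigen that defines mouse macrophages, stood at 0.14, -0.56, -0.58 and -0.17 against -1.96, -2.13, -1.37 and -1.60, a difference of -1.47 ± 0.21. Cx3cr1, the fractalkine receptor, differed by -0.92 ± 0.15, with -0.39 at its other probe. Csf1r, the receptor on which tissue macrophages depend, differed by -0.85 ± 0.18, with -0.83 and -0.66 at its other probes. C1qb, a complement chain made by macrophages, differed by -1.16 ± 0.21, but after scaling to 1 spread by -0.66, where it was not called (limma adjusted p = 0.0768). C1qa (-0.34), C1qc (0.02) and Mrc1 (0.14) did not pass. Ccr2, a receptor of blood-borne monocytes, differed by 1.40 ± 0.38, but by -0.20 in the deposited values and by -0.80 at its other probe, and its limma adjusted p was 0.136 without 40-week replicates 3 and 4 and 0.155 without 4-week replicates 2 and 3. The chemokine genes Ccl6 and Ccl9, which myeloid cells make, were lower by -1.23 ± 0.13 and -1.32 ± 0.27. Their values were 5.86, 5.53, 5.55 and 5.56 at 4 weeks and 4.29, 4.38, 4.55 and 4.35 at 40 weeks for Ccl6.

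Some red blood cell genes were also lower. Of 11 tested, 5 were lower (45.5%, against 22.5% of all genes) and 1 higher (9.09%, against 18.2%), and 4 were lower in all 3 scalings. The list's median difference was -0.24, but it was 0.11 after scaling to 1 spread, so the direction of the list as a whole rests on the scaling. Alas2, the first enzyme of haem synthesis in red cell precursors, stood at 3.80, 3.46, 4.12 and 3.63 against 2.02, 2.48, 2.27 and 2.81, a difference of -1.35 ± 0.21 (limma adjusted p = 0.000567). The part of blood content in the immune cell values was not tested.

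The interferon-linked genes Cxcl10, Iigp1 and Gbp6 were high in 2 of the 4 40-week samples, while most of the wider interferon list was not called. Cxcl10, a chemokine induced by interferon gamma, stood at -2.56, -1.97, -2.04 and -2.19 at 4 weeks and at -2.24, 0.22, 3.98 and 3.15 in 40-week replicates 1 to 4. Replicates 3 and 4 were far higher than every other sample, replicate 2 was intermediate and replicate 1 lay among the 4-week values. The difference of 3.47 ± 1.04 (limma adjusted p = 0.0194) became 1.25 without these 2 samples (limma adjusted p = 0.177). The limma adjusted p was 0.0534 without replicate 3 alone and 0.0593 without replicate 4 alone, and 0.0796 without 4-week replicates 2 and 3. Iigp1, an interferon-inducible GTPase, stood at 2.68, 2.67, 5.05 and 5.30 at 40 weeks against 1.78, 2.10, 1.12 and 2.77, and without replicates 3 and 4 the difference fell from 1.98 to 0.77. Its limma adjusted p was 0.0514 without 40-week replicate 3 and 0.0505 without 4-week replicate 3, 0.156 without 40-week replicates 3 and 4 and 0.121 without 4-week replicates 2 and 3, and in the deposited values it was not called, at 0.87. Gbp6, a guanylate-binding protein, stood at 0.31, 1.55, 2.76 and 3.42 against 0.12, 0.60, -0.11 and 0.09, with 0.78 in place of 1.83 without those 2 samples and an adjusted p of 0.0584 without 40-week replicate 3 and 0.0529 without 40-week replicate 4, 0.217 without both and 0.0777 without 4-week replicates 2 and 3. The same 2 samples were those with low Y-linked signals, and they also had the highest mean levels of 23 T and NK cell genes in the group, 0.711 and 1.33 against 0.00234 and -0.142; the part of either in these values was not tested. Of 35 interferon response genes only 2 were higher (5.71%, against 18.2% of all genes) and 1 lower (2.86%, against 22.5%). The list's mean was 1.41 in 4-week replicate 2 against -1.08 to -0.70 in the other 4-week samples. It was -0.997, -0.918, -0.149 and 0.425 in 40-week replicates 1 to 4. Control replicate 4 stood at 0.521 and the other controls at -0.892 to -0.586. The highest list mean was thus that of a 4-week sample. With 40-week replicates 3 and 4 left out none of the 35 genes was higher and 2 were lower, and without 4-week replicates 2 and 3 none was higher and 1 lower. The gene that fell was Isg20, an RNA exonuclease, by -1.03 ± 0.15 and by -1.48 at its other probe.

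Among 25 stress keratins and alarm signals of epithelium 6 were higher (24%, against 18.2% of all genes) and 5 lower (20.0%, against 22.5%). In all 3 scalings 3 were lower, Il1a, Ccl20 and S100a7a, a share near the 11.6% of all genes, and none higher (against 12.1%). Of the 6 higher genes, Serpinb3c, Stfa3 and Defb14 differed by 1.30, 0.77 and 0.60. In the deposited values they differed by -0.16, -0.84 and -1.02. The counts without 40-week replicates 3 and 4 were 1 higher and 5 lower, and without 4-week replicates 2 and 3 they were 2 and 5. Il1a, the interleukin that damaged keratinocytes release, stood at 5.82, 5.34, 5.36 and 4.24 against 3.07, 3.54, 3.56 and 2.35, a difference of -2.06 ± 0.35, and its other probe gave -2.12. Ccl20, a chemokine that draws dendritic cells and lymphocytes to epithelia, differed by -1.80 ± 0.44; on 2 of the 4 4-week arrays its Cy5 signal was not well above background.

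**Figure D4:**
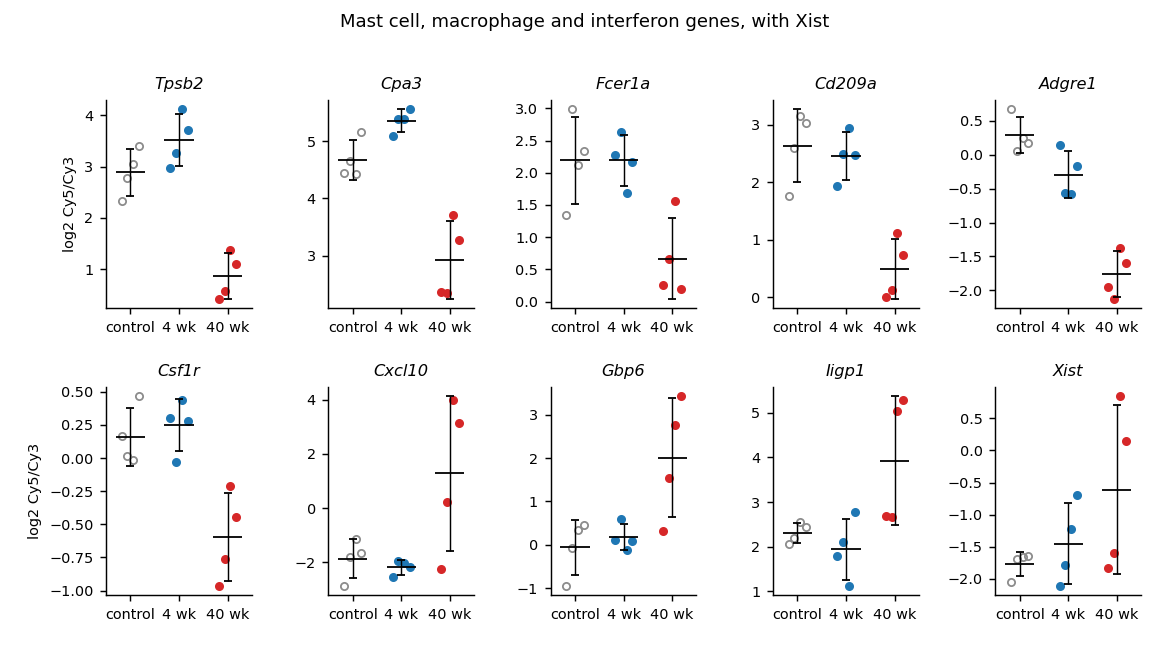
Log2 Cy5/Cy3 (vertical axes) of mast cell (Tpsb2, Cpa3, Fcer1a), dendritic cell and macrophage (Cd209a, Adgre1, Csf1r) and interferon-linked genes (Cxcl10, Gbp6, Iigp1), with Xist, in the 4 samples of each group (points), with mean (line) and standard deviation (bar). The first 6 are lower in all 4 samples at 40 weeks, while Cxcl10, Gbp6, Iigp1 and Xist are highest in 40-week replicates 3 and 4.

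Genes of fat burning were lower at 40 weeks. Fatty acids enter mitochondria through carnitine palmitoyltransferases and are cut to acetyl-CoA, and the receptor PPAR alpha switches on many of these genes. Of 27 tested, 10 were lower (37.0%, against 22.5% of all genes) and 1 higher (3.70%, against 18.2%). In all 3 scalings 5 were lower, against 11.6% of all genes, and 9 were lower without either pair of samples that stood apart. Acot2, a mitochondrial acyl-CoA thioesterase, stood at 1.59, 1.04, 1.63 and 2.05 at 4 weeks and at -0.55, -0.29, -0.52 and -0.99 at 40 weeks. The groups were far apart, controls at 1.02, 1.36, 1.45 and 1.34 lay with the 4-week samples, and the difference was -2.17 ± 0.21 (limma adjusted p = 3.77e-05). The files place its probe at chr12:85334071-85334130 of mm9. Cpt1b, the muscle-type carnitine palmitoyltransferase, stood at 0.31, 0.36, 0.06 and 0.09 against -1.63, -1.18, -1.02 and -1.33, a difference of -1.50 ± 0.14, but its other probe gave 0.20. Plin2, a coat protein of lipid droplets, stood at 1.65, 1.00, 1.06 and 1.33 against -0.23, -0.06, -0.10 and -0.36, a difference of -1.45 ± 0.17. Ucp2, a mitochondrial carrier, differed by -1.00 ± 0.18, with -2.67 and 0.29 at its other probes. Cpt1a (-0.05), the liver-type enzyme, Acadm (-0.21) and Pdk4 (0.53) did not pass the test. Plin4, a droplet coat protein of fat cells, was higher, at 3.50, 3.82, 4.64 and 3.97 against 1.90, 2.09, 1.35 and 2.63, a difference of 2.00 ± 0.29. It belongs to a list of 21 adipocyte genes, of which 5 were higher (23.8%, against 18.2% of all genes) and 2 lower (9.52%, against 22.5%).

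Single cholesterol synthesis genes were lower, but not a larger share of the group than of all genes. Of 24 tested, 5 were lower (20.8%, near the 22.5% of all genes), all 5 in all 3 scalings, and 1 was higher. Insig1, the sterol sensor that holds SREBP in the endoplasmic reticulum and is itself an SREBP target, stood at 1.10, 0.93, 1.30 and 0.98 against -0.78, -0.64, -0.76 and -0.65, a difference of -1.79 ± 0.16 (limma adjusted p = 2.42e-05). Its 4 40-week values lay within a narrow range below every other sample, and its other probe gave -1.56. Mvk, mevalonate kinase, differed by -1.00 ± 0.22 and by -0.77 at its other probe. Lss and Cyp51, enzymes of the steps from squalene epoxide onward, differed by -0.83 ± 0.22 and -0.76 ± 0.20, with -0.80 and 0.50 at the other Lss probes and -0.53 and -0.42 at the other Cyp51 probes. Hmgcs1 (0.63), which makes the precursor of mevalonate, did not pass. Without 40-week replicates 3 and 4 only 2 genes of the list were lower and 2 were higher, and limma adjusted p was 0.0528 for Mvk, 0.0963 for Lss and 0.144 for Cyp51. Without 4-week replicates 2 and 3 it was 0.104 for Cyp51.

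Enzymes of alcohol and aldehyde removal did not move together. Of 21 tested, 7 were lower (33.3%, against 22.5% of all genes) and 2 higher (9.52%, against 18.2%). Only 2 were lower in all 3 scalings, a share below the 11.6% of all genes, and none higher. With 40-week replicates 3 and 4, or 4-week replicates 2 and 3, left out, 4 were lower and 1 higher. Adh7, the class IV alcohol dehydrogenase of upper digestive epithelia, stood at 4.12, 4.39, 4.22 and 4.40 at 4 weeks and at 5.82, 5.56, 5.53 and 5.19 at 40 weeks, against 4.08, 4.12, 4.09 and 3.31 in controls. In these quantile normalized values the difference was 1.24 ± 0.19 (limma adjusted p = 0.000524), but in the deposited values it was -0.37 and was not called, so its direction rests on the scaling. Its probe lies at chr3:137894495-137894554 of mm9. Adh1, the class I enzyme, differed by -0.74 ± 0.15 and by -0.83 at its other probe, and after scaling to 1 spread by -0.21, where it was not called. In the reference channel Adh7 differed by 0.62 and Adh1 by 0.74 (log2 Cy3, 4-week minus control), and the part of this was not tested. Aldh3a2, a fatty aldehyde dehydrogenase, stood at 1.48, 1.57, 1.00 and 1.51 against 0.81, 0.91, 0.82 and 0.46, a difference of -0.64 ± 0.16, with a limma adjusted p of 0.0699 without 40-week replicates 3 and 4. Aldh2, the mitochondrial enzyme that clears acetaldehyde, differed by 0.09 ± 0.22 (limma adjusted p = 0.769), and its other probe gave 0.82. Aldh1a1 differed by 0.35 ± 0.17 (limma adjusted p = 0.118; 0.0208 without 40-week replicate 4) and Aldh3a1, an enzyme of squamous and corneal epithelium, by -0.35 ± 0.19 (limma adjusted p = 0.17; 0.0291 without 4-week replicate 2). In the deposited values Aldh1a1 differed by -1.00, the opposite sign, and after scaling to 1 spread it was called higher (limma adjusted p = 0.00948). Aldh3a1 was called lower in the deposited values, at -1.22. The reference channel of its probe differed by 1.34 (log2 Cy3, 4-week minus control), and the part of this was not tested. Cyp2e1, the ethanol-inducible cytochrome P450, stood at 5.17, 4.75, 1.92 and 5.40 against 3.97, 3.91, 4.29 and 4.10, and its difference of -0.24 ± 0.70 did not pass. The low value was that of 4-week replicate 3, the sample with little adipocyte RNA, and the part of that in the Cyp2e1 value was not tested.

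Genes of drug, retinoid and oxidant handling held single large changes. Cyp2b10, a cytochrome P450 induced through the receptor CAR, stood at 3.43, 3.18, 3.34 and 3.85 against 1.03, 1.52, 0.58 and 0.72, a difference of -2.49 ± 0.29 (limma adjusted p = 0.000108). Of 19 such P450 genes 3 were higher (15.8%, against 18.2% of all genes) and 2 lower (10.5%, against 22.5%). The counts were 1 and 1 without 40-week replicates 3 and 4, and 2 and 2 without 4-week replicates 2 and 3. Crabp2, which hands retinoic acid to its nuclear receptor, stood at 5.16, 4.91, 5.20 and 5.30 against 2.97, 3.05, 2.57 and 2.48 and at 4.51, 4.78, 5.10 and 4.75 in controls. That difference of -2.37 ± 0.17 was among the 15 largest falls, and its probe lies at chr3:87752682-87752741 of mm9. Stra6, the membrane receptor that takes up retinol, stood at -1.83, -2.07, -2.15 and -1.69 against 0.87, 0.11, 0.54 and 1.18, a difference of 2.61 ± 0.21; the reference channel of its probe differed by 2.05 (log2 Cy3, 4-week minus control), and the part of this was not tested. Rarg, the retinoic acid receptor of squamous epithelia, differed by -0.80 ± 0.15, but its other probes gave -0.29, 0.35 and 0.84, so the gene's direction is not settled by these probes. Of 18 retinoid genes 2 were lower (11.1%, against 22.5% of all genes) and 2 higher (11.1%, against 18.2%). The counts were 2 and 1 without 40-week replicates 3 and 4, and 3 and 1 without 4-week replicates 2 and 3.

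Hmox1, the inducible haem oxygenase and an NRF2 target, stood at 0.81, 0.13, 0.73 and 0.81 against 1.48, 1.99, 1.62 and 1.52, a difference of 1.03 ± 0.17. Gclm, a subunit of the enzyme that starts glutathione synthesis and also an NRF2 target, went the other way, by -0.48 ± 0.13 and by -0.57 at its other probe. Without 4-week replicates 2 and 3 its limma adjusted p was 0.0918, and without 40-week replicates 3 and 4 it was 0.122. The 29 genes of this list gave 5 higher (17.2%, against 18.2% of all genes) and 5 lower (17.2%, against 22.5%), so neither share exceeded that of all genes. The counts were 4 and 1 without 40-week replicates 3 and 4, and 2 and 2 without 4-week replicates 2 and 3. Sod3, the secreted superoxide dismutase, stood at 3.20, 2.60, 3.33 and 3.24 against 1.00, 1.48, 1.75 and 1.16, a difference of -1.75 ± 0.30, and controls at 1.47, 2.12, 2.21 and 3.07 overlapped both. Gpx3, the secreted glutathione peroxidase, stood at 4.36, 3.90, 4.24 and 4.22 against 2.92, 3.14, 3.00 and 3.01, a difference of -1.16 ± 0.14. The reference channel of the Gpx3 probe differed by 0.91 (log2 Cy3, 4-week minus control), and the part of this was not tested. Both secreted enzymes were lower in all 3 scalings, within a list of 22 mitochondrial, peroxisomal and secreted antioxidant genes. Of these, 7 were lower (31.8%, against 22.5% of all genes) and 3 higher (13.6%, against 18.2%), and 5 and 1 without either pair of samples that stood apart.

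**Figure D5:**
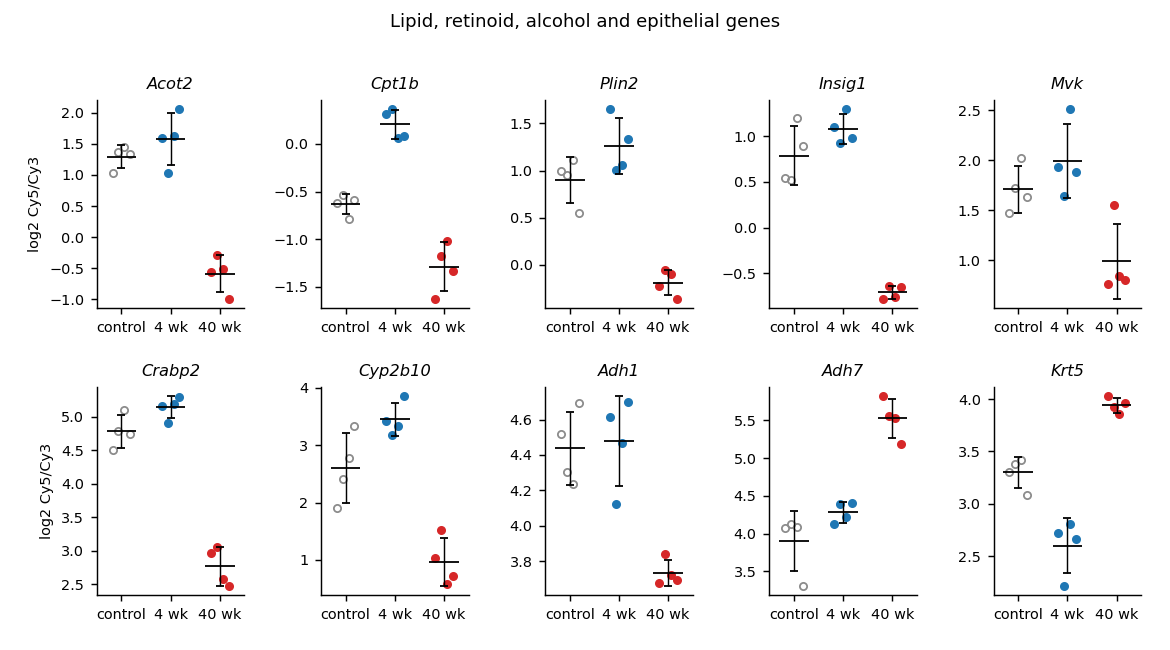
Log2 Cy5/Cy3 (vertical axes) of fatty acid (Acot2, Cpt1b, Plin2), cholesterol (Insig1, Mvk), retinoid (Crabp2), drug (Cyp2b10), alcohol (Adh1, Adh7) and epithelial (Krt5) genes in the 4 samples of each group (points), with mean (line) and standard deviation (bar). The first 8 are lower and Adh7 and Krt5 higher at 40 weeks than at 4 weeks in these quantile normalized values.

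In the squamous epithelium, single precursors of the cornified envelope fell, while most genes of the envelope lists did not pass the test. The cornified envelope is the cross-linked protein shell of dead surface cells, built from involucrin, loricrin and small proline-rich proteins. Of 27 genes of envelope scaffolds and barrier, 7 were lower (25.9%, near the 22.5% of all genes) and 2 higher (7.41%, against 18.2%). In all 3 scalings 2 were lower, a share below the 11.6% of all genes, and 4 were lower without 40-week replicates 3 and 4. Of 15 late envelope proteins 1 was lower (6.67%, against 22.5%) and 1 higher (6.67%, against 18.2%), neither in all 3 scalings. Lor (-0.02), which encodes loricrin, Flg (0.14) and Evpl (0.0071) did not pass. The cross-linking enzyme gene Tgm1 (0.77), Krtdap (0.98) and Lce1e (1.27) were higher in the quantile normalized values, but not in the deposited ones (-0.75, -0.49 and -0.00125). Of 12 small proline-rich genes, 4 were lower (33.3%, against 22.5% of all genes), all in all 3 scalings (against 11.6%). A further 2 were higher (16.7%, against 18.2%), none in all 3. Members of this family share sequence, so probes may share signal. Sprr4 stood at 2.34, 2.01, 2.38 and 2.00 against 0.46, 0.50, 0.21 and 0.28, a difference of -1.82 ± 0.22 (limma adjusted p = 0.000141). Sprr2g and Sprr2b differed by -1.19 ± 0.14 and -0.89 ± 0.15. Sprr3 was higher by 0.88 ± 0.19 in the quantile normalized values but differed by -0.77 in the deposited ones. Ivl, which encodes involucrin, stood at 4.69, 4.36, 4.59 and 4.81 against 2.74, 3.42, 3.06 and 3.51, a difference of -1.43 ± 0.17. Cdsn, an adhesion protein of cornified cells, stood at 4.27, 3.78, 4.65 and 4.19 against 2.68, 3.11, 2.91 and 3.10, a difference of -1.27 ± 0.18. Krt1, a keratin of cornifying cells, differed by -1.40 ± 0.23, but its other probe gave 0.34, and it was not called after scaling to 1 spread, at -0.76. In the reference channel the median difference (log2 Cy3, 4-week minus control) was 1.63 for late envelope proteins, 1.13 for envelope scaffolds and barrier and 0.63 for small proline-rich genes. Over all genes it was -0.03, and the part of this in these ratios was not tested.

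Basal cell genes depended on the scaling. Krt5, a keratin of the dividing basal layer, stood at 2.72, 2.21, 2.81 and 2.67 against 4.03, 3.92, 3.85 and 3.96, a difference of 1.34 ± 0.14, but at 0.15 in the deposited values, where it was not called. Its partner Krt14 differed by 0.14 ± 0.22 (limma adjusted p = 0.635). Krt4 and Krt13, the keratins of the upper layers, differed by 0.13 ± 0.16 and -0.24 ± 0.32 (limma adjusted p = 0.534 and 0.584); without 4-week replicate 2 the value for Krt13 was -0.65, with an adjusted p of 0.0149. In the deposited values all 3 of these keratins were called lower, Krt14 by -0.75, Krt4 by -1.35 and Krt13 by -1.55 (limma adjusted p = 0.0209, 0.000427 and 0.00326), and after scaling to 1 spread Krt4 was called higher, at 0.65 (0.0473). Itgb4, the integrin of hemidesmosomes, was higher by 0.95 ± 0.17 and differed by -0.21 in the deposited values, with 0.01 and 0.81 at its other probes. In the reference channel Krt4 differed by 2.01, Krt13 by 1.84, Krt1 by 1.75 and Krt5 by 1.16 (log2 Cy3, 4-week minus control), against a median of -0.03 over all genes, and the part of this in the ratios was not tested.

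Genes of the unfolded protein response, which expands the folding capacity of the endoplasmic reticulum, were lower or did not pass. Of 24 tested, 9 were lower (37.5%, against 22.5% of all genes) and none higher (against 18.2%). In all 3 scalings 3 of the 24 were lower, a share near the 11.6% of all genes. Without 40-week replicates 3 and 4, 7 were lower, and 6 without 4-week replicates 2 and 3. The list's median was -0.28 but 0.09 in the deposited values. Xbp1, a transcription factor of this response, stood at 0.34, 0.39, 0.43 and 0.10 against -0.86, -0.61, -0.56 and -0.99, a difference of -1.07 ± 0.15 (limma adjusted p = 0.000293). Canx, a folding chaperone of glycoproteins, differed by -1.02 ± 0.21, with -1.24 and -0.87 at its other probes. The chaperone gene Hspa5 (-0.28) and the stress factor gene Ddit3 (-0.17) did not pass.

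Cell cycle genes showed how far a group could rest on the scaling. Of 45 tested, 17 were lower (37.8%, against 22.5% of all genes) and none higher (against 18.2%), with a median of -0.42. But in the deposited values the median was 0.43, and only Cdkn3 was lower in all 3 scalings, against 11.6% of all genes. Without 4-week replicates 2 and 3 only 5 were lower, and 8 without 40-week replicates 3 and 4. Cdkn3, a phosphatase of cyclin-dependent kinases, differed by -0.96 ± 0.18 and by -0.99 at its other probe. Cenpa, the centromeric histone, differed by -1.55 ± 0.22 and Ccnb2, a mitotic cyclin, by -1.06 ± 0.15, and in the deposited values by -0.44 and -0.17, where neither was called. Smooth muscle genes were the reverse case: 8 of 23 were higher (34.8%, against 18.2% of all genes) and 2 lower (8.70%, against 22.5%), none in all 3 scalings. The counts were 5 and 0 without 40-week replicates 3 and 4, and the median of 0.31 became -0.69 in the deposited values. Tagln, an actin-binding protein of smooth muscle, differed by 1.26 ± 0.19, by -0.34 in the deposited values and by -0.07 at its other probe.

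Notch signalling, in which ligands of the Jagged and Delta families on 1 cell trigger the cleavage of Notch receptors on its neighbour, held genes called in both directions. Of 25 Notch and Wnt genes, 9 were higher (36.0%, against 18.2% of all genes) and 2 lower (8%, against 22.5%). In all 3 scalings 1 was higher and 2 lower, shares below the 12.1% and 11.6% of all genes. Without either pair of samples that stood apart 4 were higher and 1 lower. Notch1, the main receptor of squamous epithelia, stood at 0.52, 0.22, 0.45 and 0.58 against 2.27, 1.67, 1.69 and 2.14, a difference of 1.50 ± 0.31 (limma adjusted p = 0.00271), and its other probe gave 1.21. Controls at 1.82, 1.32, 0.37 and 0.20 overlapped both groups. The receptor gene Notch2 differed by 1.02 and Notch3 did not pass (0.71). The ligands Jag1 and Dll1 differed by 1.45 ± 0.30 and 1.11 ± 0.17, with 0.35 and -0.27 in the deposited values, where neither was called, and -0.28 at the other Jag1 probe. Hes5, a repressor that Notch switches on, stood at -0.20, -0.23, 0.07 and 0.08 against -2.40, -2.19, -1.95 and -1.82, a difference of -2.02 ± 0.19 (limma adjusted p = 3.42e-05). Its 40-week values lay below every 4-week and control value, which ran from -0.85 to 0.02 in controls.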

How the data were processed

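The value table deposited by the authors gives a log2 ratio (Cy5/Cy3) per probe for 12 arrays. Its scale and direction were read from a comparison with scanner intensities on the 8 control and 4-week arrays (r 0.974 to 0.983 with their background-subtracted log2 ratio). For the 40-week columns no such check was made, since their scanner files were not used here. The deposited scanner files give mean and median spot intensity with other flags of 0 or 1 for signal above background or saturation, per the file headers. These name Agilent Feature Extraction 10.7.3.1 and build mm9, while the submitters' processing notes give version 9.1. RNA was amplified linearly and no dye was swapped, per the labels, and no spot was saturated.

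Of 41174 probes, 26918 were named by accession, 5082 by symbol and 797 by synonym in RefSeq's gene table, 1189 kept the file's name and 7188 had none. Exact zeros were set to missing, and columns were quantile normalized over 12 samples. Every probe of the 8 scanner arrays with a channel not above background held exactly 0. Probes needed Cy5 well above background on at least 3 of 4 arrays of 1 scanner group (30455 probes) and 2 values in each alcohol group. The brightest probe stood for a symbol, which made 20748 genes, 134 of them with a missing alcohol value. Transcripts detectable only at 40 weeks would not pass this filter. The number of arrays limits the precision.

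limma 3.58.1 (R 4.3.3; lmFit, eBayes, 3 groups, no block) gave each adjusted p, by Benjamini-Hochberg over all genes, with a threshold of 0.05, and was tested on simulated data. Cy3 values are log2 after normexp (offset 50) and quantile normalization over 8 arrays. Named genes were the 15 largest differences per direction with groups that did not overlap and 1 sign in 3 scalings, up to 6 called members per list and direction, and a set of alcohol, keratin and sex-linked genes; nuclear RNAs and Ogt were added after their values were seen. Some genes that met this rule or belong to a list are not reported here. Members and lists were chosen with earlier results of these data known. Alternatives covered scaling, zeros, filters, probe choice, weights, variance, threshold, block and samples. Replicate numbers did not pair the samples: deviations of same-numbered samples correlated at 0.17, -0.18, -0.17 and -0.02.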

Additional observations from a re-analysis of the deposited data

Results flagged for a closer look

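In 212 sets of 4 values, 1 per named gene and alcohol group, 14 held a sample whose gap to the nearest of the others exceeded Dixon's critical share of the range, which chance alone exceeds in about 1 of 20 sets. Among the 4-week samples, replicate 1 stood apart for Neat1 (-2.07 against -2.80 to -2.71) and Ccl6 (5.86 against 5.53 to 5.56). Replicate 2, with the most glandular stomach RNA of its group, stood apart for Per2 (-0.055 against 0.38 to 0.47), Dbp (0.76 against 1.42 to 1.56), Hmox1 (0.13 against 0.73 to 0.81) and Tex26 (-0.22 against 0.42 to 0.50). Replicate 3 stood apart for Muc16 (1.42 against 0.43 to 0.58) and Aldh3a2 (1.00 against 1.48 to 1.57). At 40 weeks, replicate 1 stood apart for Muc16 (2.79 against 4.53 to 4.73) and Sult1d1 (3.68 against 1.10 to 1.40). Replicate 2 stood apart for Mvk (1.55 against 0.76 to 0.85), replicate 3 for Tex26 (-1.35 against -2.48 to -2.34), and replicate 4 for Klra20 (-5.80 against -5.07 to -4.99) and Sprr3 (5.79 against 5.56 to 5.58).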

How the results depend on the processing

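Under 21 other settings the count of called genes stayed within 1.5 times 8441 except without 40-week replicates 3 and 4 (5495, with 2499 higher and 2996 lower) and without 4-week replicates 2 and 3 (5001, with 2282 and 2719). Both leave fewer samples. A further limit of a difference over 1 left 2886 (1640 and 1246), and calls in all 3 scalings, a count chosen after seeing the data, were 4905 (2501 and 2404). Leaving out 1 sample gave 7028 to 7711 called, 3208 to 3544 higher and 3771 to 4208 lower. With the replicate block 8162 genes were called, 3658 higher and 4504 lower, and among the named genes it ended the call of Rab38 alone.

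Among 106 named genes, 96 were called, of which 63 kept their call and 88 their direction in every one of these settings. Without quantile normalization the sign turned for Ccr2 (-0.20), Adh7 (-0.37), Aldh1a1 (-1.00), Aldh2 (-0.18), Krt14 (-0.75), Krt4 (-1.35), Sprr3 (-0.77), Itgb4 (-0.21), Dll1 (-0.27) and Tagln (-0.34), and after scaling to 1 spread for Aldh3a1 (0.034), Cyp2e1 (0.30) and Krt13 (0.22). Array weights turned Cyp2e1 (0.18) and Krt14 (-0.034), the mean over probes Rarg (0.025), and the filter on all 8 scanner arrays, which chose another probe, Ptprg (-0.062). Without 40-week replicates 3 and 4 Xist (-0.29), Eif2s3y (1.48) and Ddx3y (0.54) turned, and without 4-week replicates 2 and 3 Aldh2 (-0.047). Leaving out 1 sample gave -1.03 (without 4-week replicate 3) to 0.12 (without 4-week replicate 4) for Cyp2e1, and -0.029 (without 4-week replicate 2) to 0.35 (without 4-week replicate 3) for Krt14. Beyond what these settings change by construction, the cause was not tested. Probes near background limit the low ratios, and the 40-week arrays gave no measure of signal over background here.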
